A study of Glycine max with 4 samples.

Results

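Chlorophyll a/b binding protein genes were followed in soybean (Glycine max) leaves through 5 gene models, Glyma05g25810, Glyma08g08761, Glyma08g08770, Glyma16g28030 and Glyma16g28070. They were chosen by identifier as members of the light-harvesting family, by a rule that does not use their values. Earlier results of these data were already known when that choice was made. Of the 5, 5 were present among the 54175 gene models of the deposited table. The table holds no gene descriptions and none of its identifiers matched the reference name table, so the family name rests on that choice and was not checked against sequence. By the numbers in their identifiers the gene models lie on chromosomes 5, 8 and 16. Glyma08g08761 and Glyma08g08770 are next to each other in the order of the identifiers, and Glyma16g28030 and Glyma16g28070 are 3 steps apart.

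Light-harvesting chlorophyll a/b binding proteins sit in the thylakoid membrane of the chloroplast, where they hold chlorophyll and carotenoid pigments and pass the energy of absorbed light to the photosystems. They are encoded by a family of nuclear genes whose transcripts are among the most abundant in green leaves. In many plants these transcripts follow light and the daily clock, and they decline in ageing or stressed leaves.

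Expression was measured by RNA-seq in 4 groups of 3 libraries each: PI 567690 under drought, PI 567690 control, Pana under drought and Pana control. PI 567690 is the line labelled drought tolerant and Pana the one labelled drought susceptible. Water stress was imposed at the V5 vegetative stage for 15 days on plants in large pots of soil and sand, the drought groups come from these stressed plants, and leaves are labelled R2, a flowering stage. The series describes the 3 libraries of a group as biological replicates, but no label ties a library to a plant, and every p-value below reflects library-to-library spread, which may be technical.

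Depth, read from the step size of low values, ranged from 48.3% of the deepest library (Pana drought library 3) in PI 567690 drought library 1 to 99.6% in PI 567690 control library 2. Over all tested genes 4 drought libraries were closer to a library of the other line than to their own group. Pana drought libraries 1 and 2 and PI 567690 drought library 1 were closest to a drought library of the other line (r = 0.92 to 0.936, against 0.901 to 0.925 within the group). Pana drought library 3 instead resembled a control, as it was closer to PI 567690 control library 1 (r = 0.938 across genes on the log2 scale) than to any library of its own group (r = 0.863 at most). Pana control library 1 reached r = 0.864 with its closest library. It also had the most gene models at 0, 15657 against 9535 to 12093 in the other libraries. Its summed FPKM was the highest, 917256 against 674026 to 772891, and its levels below are not rescaled for this. Libraries 2 and 3 of PI 567690 under drought were the most alike of all (r = 0.992). Values without these libraries are given beside the results.

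Values are in FPKM, which relates the reads of a gene model to its length and to the reads of the library, so levels of different gene models can be set side by side. The most abundant of the 5 was Glyma05g25810. It stood at 889, 3259.95 and 3474 FPKM in the PI 567690 drought libraries 1 to 3, against 13015, 14069.6 and 15147 FPKM in the PI 567690 controls. In Pana it stood at 164, 2718 and 10566 FPKM under drought, against 24293.5, 14066 and 8038 FPKM in the controls. All 3 PI 567690 drought libraries lay below all 3 controls of that line, whereas in Pana drought library 3 lay within the range of the controls. In Pana control library 1 this gene model ranked 1 among all gene models, and in the other 5 control libraries it ranked 3 or 4. Under drought its rank was 42, 9 and 9 in PI 567690 and 432, 11 and 3 in Pana.

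Glyma08g08770 had the next highest level. Its values were 915, 2324 and 2418 FPKM in PI 567690 under drought, against 5994, 6786 and 7252 FPKM in the controls. In Pana they were 273, 2369 and 5264 FPKM under drought, against 11225, 6885 and 4583 FPKM in the controls. The pattern over libraries was that of Glyma05g25810: PI 567690 parted fully by treatment, and Pana overlapped through drought library 3.

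The 2 gene models with chromosome 16 identifiers were less abundant, and in PI 567690 they were further apart between treatments than Glyma05g25810 and Glyma08g08770. In Pana the order depended on the scale. By group means of FPKM, in which Pana drought library 3 weighs most, the fold between drought and control was smaller for both. By log2(FPKM + 1) fold change it was larger, at -3.44 for Glyma16g28030 and -3.42 for Glyma16g28070. The values for Glyma05g25810 and Glyma08g08770 were -3.06 and -2.23. Glyma16g28030 stood at 56.0, 231 and 236 FPKM in PI 567690 under drought, against 2433, 3060.4 and 2977 FPKM in the controls. In Pana it stood at 4.31, 187 and 1521 FPKM under drought, against 1209, 2199 and 723 FPKM in the controls. Pana drought library 3 was thus above 2 of the 3 Pana controls.

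Glyma16g28070 stood at 24.6, 178 and 193 FPKM in PI 567690 under drought, against 3789, 4609.6 and 4510.5 FPKM in the controls. In Pana it stood at 4.15, 125 and 3601 FPKM under drought, against 2895, 1835 and 535 FPKM in the controls. Here Pana drought library 3 was above all 3 Pana controls, while Pana drought libraries 1 and 2 were below all of them. The lowest values of both gene models were measured with many reads: in Pana drought library 1 the steps of the values gave at least 134 reads for Glyma16g28030 and 158 for Glyma16g28070.

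Glyma08g08761 was the least abundant. It stood at 0.979, 0.561 and 0.484 FPKM in PI 567690 under drought, against 181, 282 and 219.98 FPKM in the controls. In Pana it stood at 0.108, 0.244 and 61.996 FPKM under drought, against 1.87, 99.6 and 20.2 FPKM in the controls. The low values rest on few reads, the smallest whole numbers that fit the steps being 5, 4 and 4 reads in PI 567690 drought libraries 1 to 3 and 1 and 2 reads in Pana drought libraries 1 and 2. Pana control library 1 held 10 reads, against 689 and 180 in the other 2 Pana controls and 964 and 2966 in PI 567690 control libraries 1 and 2. No whole number was recovered for PI 567690 control library 3. The Pana controls alone therefore spanned 53.2-fold for Glyma08g08761, against 2.45-fold to 5.41-fold for the other 4 gene models.

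**Figure D1:**
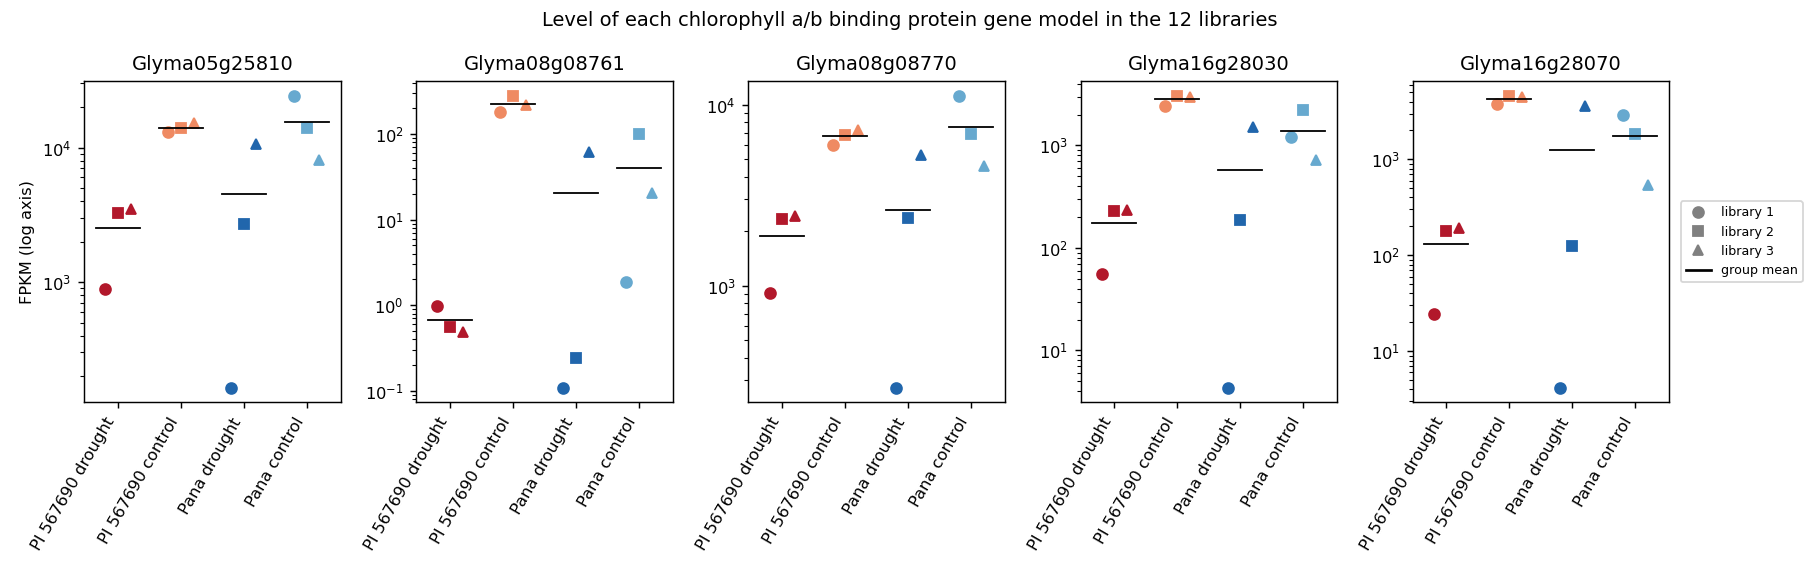
FPKM of the 5 gene models on a log axis, 1 panel each, for the 3 libraries of PI 567690 drought, PI 567690 control, Pana drought and Pana control (circle, square and triangle for libraries 1, 2 and 3; the line is the group mean). The PI 567690 drought libraries lie below the PI 567690 controls in all 5 panels, while Pana drought library 3 lies within or above the range of the Pana controls and Pana drought library 1 is the lowest of the 12 in each panel.

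Together the 5 gene models made up 0.270%, 0.843% and 0.883% of the summed FPKM of the PI 567690 drought libraries, against 3.50%, 3.89% and 4.12% in the PI 567690 controls. In Pana they made up 0.0661%, 0.761% and 2.94% under drought, against 4.32%, 3.25% and 2.02% in the controls. Glyma05g25810 and Glyma08g08770 supplied most of these sums. In bulk leaf RNA, fewer cells that express a gene and less RNA per cell cannot be told apart.

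The first comparison asked how drought changed the genes in the tolerant line. In PI 567690 only Glyma08g08761 passed the threshold in the fit over all 12 libraries and fell, with a log2(FPKM + 1) fold change of -7.08 ± 1.45 SE (limma adjusted p = 0.0101), to 0.675 ± 0.267 FPKM under drought, against 228 ± 50.7 FPKM in the controls (SD, n = 3 each). This is 1 of 5 members, beside 6.25% of the 32697 tested genes called lower. Its log2 fold change was the 2nd lowest of all tested genes. Counted from the lowest, Glyma16g28070 ranked 14, Glyma16g28030 56, Glyma05g25810 336 and Glyma08g08770 867. The order of the members depended on the pseudocount: with a pseudocount of 5, Glyma08g08761 was at -5.34 and Glyma16g28070 at -5.39.

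The other 4 had negative log2 fold changes that missed the threshold in that fit. Glyma16g28070 averaged 132 ± 93.3 FPKM under drought and 4303 ± 448 FPKM in the PI 567690 controls (log2 fold change -5.48 ± 1.79 SE, limma adjusted p = 0.067). Glyma16g28030 averaged 174 ± 102 FPKM under drought and 2824 ± 341 FPKM in the controls (-4.26 ± 1.52 SE, limma adjusted p = 0.088). Glyma05g25810 averaged 2541 ± 1434 FPKM under drought and 14077 ± 1066 FPKM in the controls (-2.70 ± 1.24 SE, limma adjusted p = 0.168). Glyma08g08770 averaged 1886 ± 842 FPKM under drought and 6677 ± 636 FPKM in the controls (-1.95 ± 0.93 SE, limma adjusted p = 0.184).

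For 5 of 5 members all drought libraries lay below all controls of PI 567690, which was so for 21.4% of the tested genes. The median log2 fold change of the members was -4.26, against 0.21 over all tested genes. When the libraries were rescaled so that their median ratio was equal, the median of all tested genes was 0.0055, and the members then lay between -2.20 and -7.19.

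How many members passed depended on which libraries shared the spread. With the 6 PI 567690 libraries fitted alone, 5 of 5 were called lower (limma adjusted p from 3.31e-05 to 0.014), beside 16% of the tested genes. Without Pana drought library 1 in the fit over the remaining libraries 5 were called, beside 8.44% of genes. Without Pana drought library 3 it was 3 (Glyma08g08761, Glyma16g28030 and Glyma16g28070), beside 9.2%, and the same number without both that library and Pana control library 1, beside 13.3%. With a weight estimated for each library it was 5, beside 23.4%. Without PI 567690 control library 2 it was 0, beside 2.16%, with Glyma08g08761 at a limma adjusted p of 0.0507. Glyma08g08761 alone was called with PI 567690 drought libraries 2 and 3 averaged (log2 fold change -7.02, limma adjusted p = 0.0355), without either of them (-7.04 and -7.00, limma adjusted p = 0.036 and 0.0358) and without Pana control library 1 (limma adjusted p = 0.00671). The same held without PI 567690 drought library 1 (-7.21, limma adjusted p = 0.0362). The other members then shrank to between -4.52 (Glyma16g28070, limma adjusted p = 0.242) and -1.49 (Glyma08g08770, limma adjusted p = 0.490).

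The same comparison in the susceptible line gave 0 of 5 members past the threshold in the fit over all 12 libraries, beside 0.658% of tested genes called lower. At an unadjusted limma p under 0.05 there were 3 (Glyma05g25810, Glyma08g08770 and Glyma16g28030), beside 29.7% of tested genes in either direction. All 5 log2 fold changes were negative, with a median of -3.06 against 0.32 over all tested genes, a median that scaling moved to 0.022. Drought and control libraries of Pana overlapped for 5 of 5 members and for 80.2% of tested genes. All drought libraries lay below all Pana controls for 3.94% of tested genes.

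Glyma16g28030 averaged 571 ± 828 FPKM in Pana under drought and 1377 ± 752 FPKM in the Pana controls (SD, n = 3 each; log2 fold change -3.44, 95% interval -6.76 to -0.11, limma adjusted p = 0.159). Glyma05g25810 averaged 4483 ± 5421 FPKM under drought and 15466 ± 8218 FPKM in the controls (-3.06, interval -5.78 to -0.35, limma adjusted p = 0.136). The SDs show the disagreement of the 3 drought libraries. The values of the remaining members were -3.42 for Glyma16g28070, -2.23 for Glyma08g08770 and -2.05 for Glyma08g08761 (limma adjusted p = 0.215, 0.143 and 0.345).

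Taken library by library, Pana drought library 1 differed from the mean of the Pana controls by -8.11 to -4.05 on the log2 scale over the 5 members, and Pana drought library 2 by -3.88 to -1.58. For Pana drought library 3 the differences lay between -0.43 and 1.78. In PI 567690 the drought libraries were more alike than in Pana. Differences from the mean of that line's controls were -7.39 to -2.86 in library 1, -7.17 to -1.52 in library 2 and -7.25 to -1.46 in library 3. The lowest member was Glyma16g28070 in library 1 and Glyma08g08761 in libraries 2 and 3. For every member but Glyma08g08761, library 1 lay below the other 2, as for Glyma16g28070 at -7.39 against -4.58 and -4.46. Pana drought library 1 held the lowest value of all 12 libraries for 5 of 5 members. PI 567690 drought library 1 held the second lowest for 4 of them, the exception being Glyma08g08761.

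**Figure D2:**
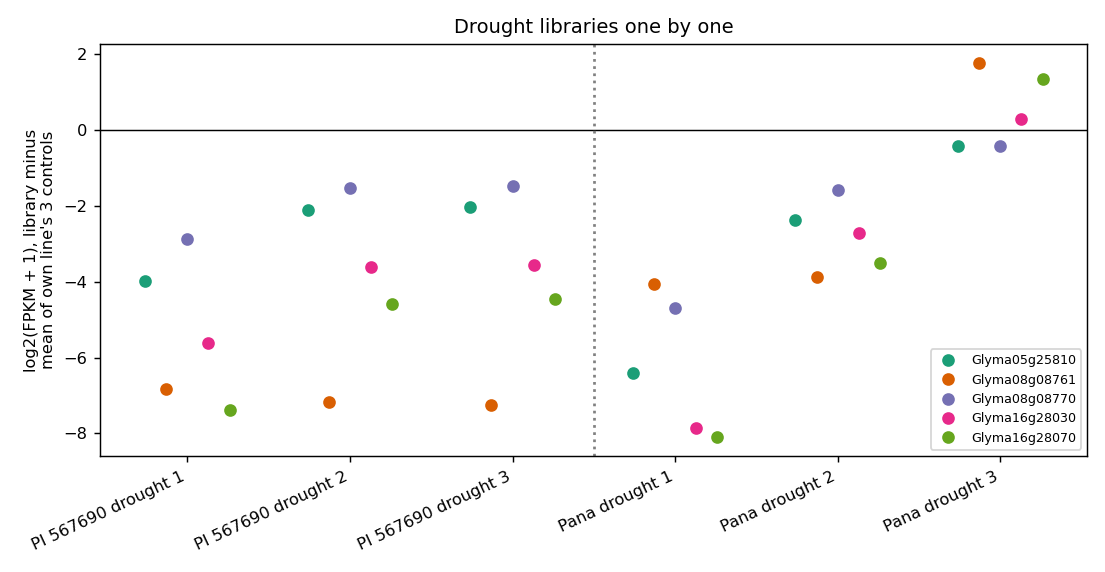
Difference of log2(FPKM + 1) between each drought library and the mean of the 3 controls of its own line, for the 5 gene models (colours), with PI 567690 drought libraries left of the dotted line and Pana drought libraries right of it. Pana drought library 3 lies between -0.43 and 1.78, while the other 5 drought libraries are at -1.46 or lower for every gene model.

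Leaving out Pana drought library 3 changed the Pana result for every member. Without it, 5 of 5 were called lower, beside 4.83% of tested genes, with log2 fold changes from -3.13 (Glyma08g08770) to -5.80 (Glyma16g28070) and limma adjusted p from 0.013 to 0.0279. The same 5 of 5 were called without both Pana drought library 3 and Pana control library 1, beside 7.41%, and with a weight per library, beside 9.92%. With the 6 Pana libraries alone 0 of 5 were called, and 0 genes in all. Without Pana drought library 1 the log2 fold changes shrank to between -1.002 and -1.39, and none was called. Without Pana control library 1 alone they lay between -3.46 and -1.90, and again 0 were called. Leaving out Pana drought library 2 gave values between -3.79 and -1.13, also with 0 called. What sets Pana drought library 3 apart was not tested.

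The difference of the drought effects (PI 567690 minus Pana) was tested directly, and 0 of 5 members passed, beside 5.59% of the tested genes. At an unadjusted limma p under 0.05 there was 1 of 5, beside 19.1% of tested genes, which is no more than the background. It was Glyma08g08761, with a difference of -5.03 ± 2.05 SE (95% interval -9.53 to -0.54, limma adjusted p = 0.204). For the other 4 the differences lay between -2.06 (Glyma16g28070) and 0.36 (Glyma05g25810), with 95% intervals that spanned at least -2.60 to 3.17. The sign of these 4 changed with single libraries: without Pana drought library 3 all 4 were positive (0.32 to 1.69), with Glyma08g08761 at -3.12, and without Pana drought library 1 all 4 were negative (-4.40 to -0.94). These intervals leave room for differences of several fold in either direction.

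**Figure D3:**
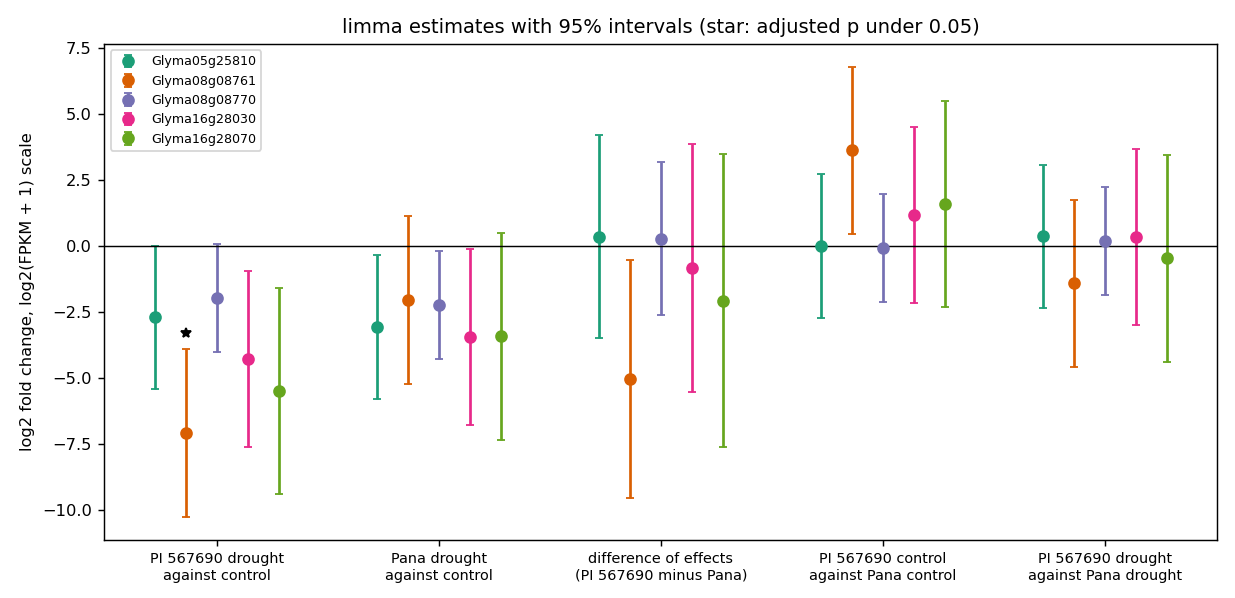
limma log2 fold changes on the log2(FPKM + 1) scale with 95% intervals for the 5 gene models (colours) in the 5 comparisons; the star marks an adjusted p under 0.05. Glyma08g08761 under drought in PI 567690, at -7.08, is the single starred estimate, and the intervals of the difference of effects include 0 for the other 4 gene models.

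Between the lines, well-watered leaves gave 0 of 5 members past the threshold, beside 11.4% of tested genes called higher in PI 567690. At an unadjusted limma p under 0.05 there was 1 (Glyma08g08761), beside 29.4% in either direction. For Glyma05g25810 the control means were 14077 ± 1066 FPKM for PI 567690 and 15466 ± 8218 FPKM for Pana (log2 fold change 0.0047, 95% interval -2.71 to 2.72). For Glyma08g08770 the control means were 6677 ± 636 FPKM for PI 567690 and 7564 ± 3372 FPKM for Pana (-0.088, interval -2.13 to 1.95). For the other 3, Glyma08g08761, Glyma16g28030 and Glyma16g28070, all PI 567690 controls lay above all Pana controls, which was so for 28.1% of tested genes.

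Glyma08g08761 had the widest gap between the controls, with means of 228 ± 50.7 FPKM for PI 567690 and 40.6 ± 51.9 FPKM for Pana (log2 fold change 3.62 ± 1.45 SE, limma adjusted p = 0.122). It was called without Pana drought library 3 (limma adjusted p = 0.0227), as the only member, beside 14.2% of genes called higher. It was also called without both that library and Pana control library 1 (log2 fold change 2.28, limma adjusted p = 0.0134), beside 13.9%, and with a weight per library (1.66, limma adjusted p = 0.0225), beside 35.4%. It was not called without Pana control library 1 alone (2.28, limma adjusted p = 0.378) or without Pana control library 2 (4.85, limma adjusted p = 0.0645), so single Pana controls moved its log2 fold change between these values. Over the alternatives run its limma adjusted p lay between 0.0134 and 0.378. Glyma16g28030 had a log2 fold change of 1.18 and Glyma16g28070 of 1.60 (limma adjusted p = 0.642 and 0.585).

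Under drought the lines were compared last, and again 0 of 5 members passed, beside 0.388% of tested genes called in either direction. The 3 libraries of PI 567690 and of Pana overlapped for 5 of 5 members and for 86% of tested genes. At an unadjusted limma p under 0.05 there were 0, beside 6.84%. The log2 fold changes lay between -1.41 (Glyma08g08761) and 0.36 (Glyma05g25810), and the 95% intervals reached from -4.59 to 3.67. By median level the groups stood in the order PI 567690 control, Pana control, PI 567690 drought and Pana drought for 4 members. For Glyma08g08770 the order was Pana control, PI 567690 control, Pana drought and PI 567690 drought. The 2 control groups overlapped for Glyma08g08770 and for Glyma05g25810, whose control medians were nearly equal (14069.6 and 14066.3 FPKM), so their order says little there. The medians of the 2 drought groups were neighbours in that order for each member and their ranges overlapped.

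The members did not keep the same proportions to one another in all libraries. These ratios were chosen after their values were seen. Glyma05g25810 was 0.972, 1.403 and 1.44 times as abundant as Glyma08g08770 in the PI 567690 drought libraries, against 2.17, 2.07 and 2.09 times in the PI 567690 controls. In Pana the ratio was 0.600, 1.15 and 2.01 under drought, against 2.16, 2.04 and 1.75 in the controls. Drought libraries with low levels thus had the lower ratios, and Pana drought library 3 again stood with the controls.

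The ratio of Glyma16g28070 to Glyma16g28030 was 0.439, 0.770 and 0.820 in PI 567690 under drought, against 1.56, 1.51 and 1.51 in the controls. In Pana it was 0.962, 0.667 and 2.37 under drought, against 2.39, 0.835 and 0.739 in the controls. The Pana values overlapped between treatments and split into 2 high libraries and 4 lower ones. With 3 libraries against 3, an exact two-sided permutation test cannot go below p = 0.1, and both PI 567690 ratios reached that value (log2 difference -0.75 and -1.23, adjusted p = 0.2 over 4 tests). In Pana the exact p was 0.2 for the first ratio (-0.83) and 1.0 for the second (0.014), with adjusted p = 0.267 and 1.0. Since the ratios were picked after their values were seen, these p-values describe the separation and are no support for it. A ratio within a library does not depend on how libraries are scaled, but reads that near-identical copies share could have been divided between them by the authors' software, and the likeness of these gene models was not examined here.

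**Figure D4:**
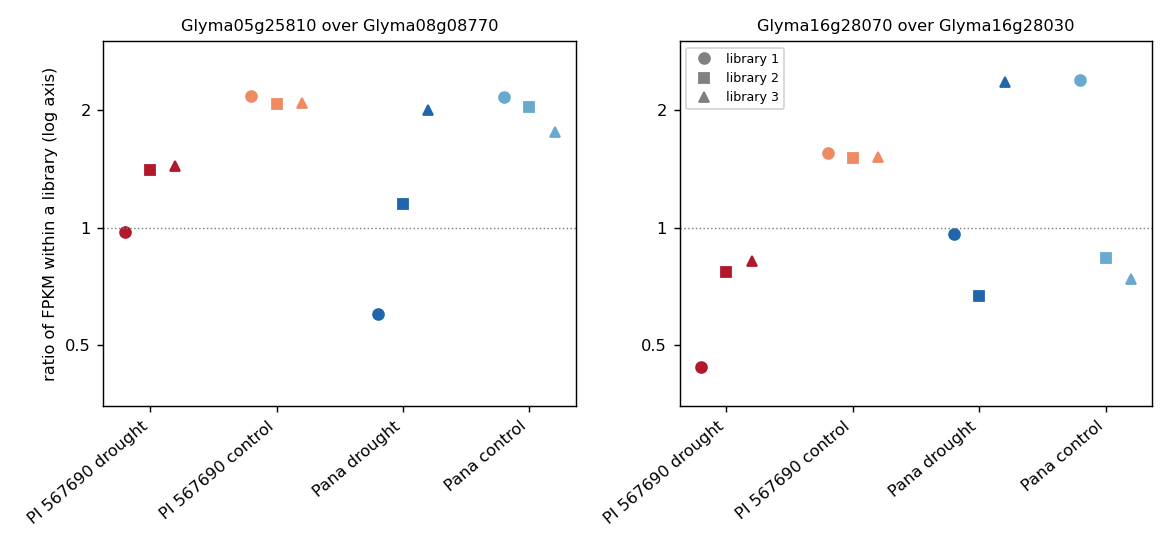
Ratio of FPKM within each library on a log axis, Glyma05g25810 over Glyma08g08770 (left panel) and Glyma16g28070 over Glyma16g28030 (right panel), for the 3 libraries of each group (circle, square and triangle for libraries 1, 2 and 3). The PI 567690 drought libraries lie at 0.972 to 1.44 and 0.439 to 0.820, below the PI 567690 controls at 2.07 to 2.17 and 1.51 to 1.56, while the Pana groups overlap in both panels.

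Across the 12 libraries, which differ in depth, line and treatment for all members alike, 4 members followed each other closely. On the log2(FPKM + 1) scale Pearson's r was 0.998 between Glyma05g25810 and Glyma08g08770 and 0.981 between Glyma16g28030 and Glyma16g28070. It lay between 0.958 and 0.975 for the pairs across these sets. Glyma08g08761 was less like the others, with r from 0.656 to 0.807, although its identifier is next to that of Glyma08g08770. With the group means removed, r was 0.998 and 0.97 for the first 2 pairs, and 0.405 to 0.635 for Glyma08g08761 with the rest. Each r describes these libraries and has no test.

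The gene models outside the 5 whose levels were most like a member over the 12 libraries carry no description here. For Glyma05g25810 they were Glyma04g41080 (r = 0.996), Glyma13g35800 (r = 0.995) and Glyma12g34770 (r = 0.993). Glyma13g35800 and Glyma04g41080 were also among the 3 most like Glyma08g08770 (r = 0.995 and 0.994), together with Glyma03g08280 (r = 0.994). Glyma13g35800 averaged 607 ± 313 FPKM in PI 567690 under drought and 2915 ± 115 FPKM in the PI 567690 controls, and 1118 ± 1385 FPKM in Pana under drought and 3912 ± 2579.7 FPKM in the Pana controls (SD, n = 3 each).

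For Glyma16g28030 the 3 most alike were Glyma06g13640, Glyma03g29870 and Glyma14g00640 (r = 0.995, 0.994 and 0.992). For Glyma16g28070 they were Glyma08g21900, Glyma09g07310 and Glyma08g19210 (r = 0.991, 0.990 and 0.988). For Glyma08g08761 they were Glyma11g04820, Glyma07g04310 and Glyma19g33440 (r = 0.988, 0.968 and 0.966). Glyma07g04310 averaged 1.19 ± 0.649 FPKM in PI 567690 under drought and 127 ± 19.2 FPKM in the PI 567690 controls, and 11.1 ± 18.3 FPKM in Pana under drought and 11.2 ± 6.32 FPKM in the Pana controls (SD, n = 3 each). Since these genes were selected for likeness over the same 12 libraries, their drought differences repeat that selection and are given with no test.

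Gene models listed next to the members were read as their surroundings. Of the 20 distinct neighbours within 3 places on either side, 12 were tested. Among the 12, Glyma16g28040 and Glyma16g28060 reached 1 FPKM in the PI 567690 controls alone and so entered the fit only through that group. Their difference between the treatments of PI 567690 is therefore fixed in part by the filter, and no test of it and no count over the neighbours is given. Glyma16g28040 lay between 0.175 and 0.281 FPKM in PI 567690 under drought, against 1.13 to 1.77 FPKM in the controls.

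Glyma16g27995, 3 places before Glyma16g28030, was picked from the 12 tested neighbours after their values were seen. Its p-values are therefore no independent support for a fall. Glyma16g27995 had control levels of the same order as those of the chromosome 16 members. In every drought library of both lines it lay below both of them. It stood at 6.10, 48.6 and 48.6 FPKM in PI 567690 under drought, against 1993, 2591 and 2658 FPKM in the controls (log2 fold change -6.53, limma adjusted p = 0.0155). In Pana it stood at 1.81, 85.6 and 484 FPKM under drought, against 1474, 1742 and 522 FPKM in the controls (-4.49, limma adjusted p = 0.097). All 3 Pana drought libraries lay below the 3 controls for this gene model, with library 3 closest to them. Of the immediate neighbours of the chromosome 5 and 8 members, Glyma05g25800, Glyma05g25821 and Glyma08g08750 were tested and not called in either line. Of the 32697 tested genes, 4023 were called in either direction in PI 567690 and 704 in Pana. Glyma08g08781, next to Glyma08g08770, was too low to be tested (mean 0.0298 FPKM).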

How the data were processed

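Leaf RNA of 2 soybean lines under drought and control conditions was sequenced in 12 libraries, 3 per group, and the groups were taken from the labels through the line and treatment in the column names. Tools listed in the submitters' processing notes are Cufflinks, Cuffdiff, TopHat 1.4.1 and FastQC, without role or order. Which genome build was used is not given in the sources used here. Values in the deposited table were read as FPKM computed by the authors: the table names no unit, and this follows from the values and the named tools.

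Gene models that reached 1 FPKM in 3 or more libraries (32697, all 5 members included) were fitted on log2(FPKM + 1) with limma 3.58.1 (R 4.3.3; trend on mean expression, 1 coefficient per group, 8 residual and 3.42 prior degrees of freedom), with Benjamini-Hochberg adjustment over all of them at 0.05. Fold changes on this scale understate the change of low values. The fit uses 1 spread per gene for both lines. None of the identifiers (0 of 54175) matched the 59048 genes of the reference table, so no list of other genes of the pathway and no leaf marker list could be applied, and the labelled tissue was not checked against markers.

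Relative depth came from the most frequent ratio of values under 0.5 FPKM between libraries, and read numbers from the smallest numbers that made the 5 lowest values of a gene model whole within 0.06 reads. That worked for 3 members, though some of their higher values did not come out whole and have no read number. All 5 members are named, with the 3 genes most like each by Pearson's r and the neighbours within 3 places. The members and lists were chosen with earlier results of these data known. The limma step was tested on simulated data. Alternatives covered scaling, filters, pseudocount, libraries in the fit, library weights (gene by gene, since the default estimate did not converge), the replicate number as a block and leaving out each library in turn. Python 3.11.15, scipy 1.17.1 and matplotlib 3.10.9 were used for the exact tests and plots.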

Additional observations from a re-analysis of the deposited data

How the results depend on the processing

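In PI 567690 the number of members called under drought, 1 in the fit over all 12 libraries, was 5 with the PI 567690 libraries alone and with a weight per library, 3 without both Pana drought library 3 and Pana control library 1, and 0 to 5 with 1 library left out. In Pana it was 5 in place of 0 with a weight per library and without both libraries, and 0 to 5 with 1 left out. Between the controls it was 1 in place of 0 with a weight per library and without both libraries, and 0 to 1 with 1 left out. For the difference of effects and between the lines under drought it was 0 in every alternative run. The drought log2 fold changes kept their negative sign in every alternative run, from -7.96 to -1.49 in PI 567690 and from -5.80 to -0.82 in Pana.

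Signs turned only where no call was made. Without both libraries Glyma16g28030 had a difference of effects of 1.06. Between the controls Glyma05g25810 was at -0.27 after scaling, and Glyma08g08770 at 0.24 without both libraries and 0.037 with weights. Under drought between the lines, Glyma08g08761 was at 0.068 with weights and 0.50 without both libraries, Glyma16g28070 at 0.61 and 1.92, and Glyma08g08770 at -0.032 with PI 567690 drought libraries 2 and 3 averaged. With 1 library left out the differences of effects ranged from -1.32 to 1.69 (Glyma05g25810), -0.94 to 1.19 (Glyma08g08770), -3.05 to 1.035 (Glyma16g28030) and -4.40 to 0.32 (Glyma16g28070). Between the controls they ranged from -0.40 to 0.40 (Glyma05g25810) and -0.40 to 0.24 (Glyma08g08770). Under drought between the lines they ranged from -1.31 to 1.69 (Glyma05g25810), -2.41 to 0.50 (Glyma08g08761), -1.03 to 1.10 (Glyma08g08770), -1.87 to 2.21 (Glyma16g28030) and -2.81 to 1.92 (Glyma16g28070). For the log2 ratio of Glyma16g28070 to Glyma16g28030 in Pana, the difference of drought minus control ranged from -0.51 to 0.55 with 1 library left out. The cause of these turns was not tested.

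The replicate number as a block left the number of members called at 1 in PI 567690 under drought and at 0 in the other comparisons. Same-numbered libraries of 2 groups did not deviate together throughout (r across genes from -0.109 to 0.656), so the numbers were not taken to pair them. The drought groups of the 2 lines gave r = 0.656 for libraries 1 and 0.608 for libraries 3, against -0.109 for libraries 2. These values are not independent of one another. Deviations within a group sum to 0, and PI 567690 drought libraries 2 and 3 were nearly identical (r = 0.992), so the value for libraries 3 partly repeats that for libraries 1. In the other pairs of groups r lay between -0.0551 and 0.183. The comparisons between the lines treat the drought libraries as independent, and the cause of the likeness of the drought libraries between the lines was not tested. The low values of Glyma08g08761 rest on 1 to 5 reads, which limits the size of its fold change.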
